A study of Mus musculus with 3 samples.

Results

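The liver of male mice lacking apolipoprotein E was compared between a diet with trans10,cis12 conjugated linoleic acid (t10,c12-CLA) and a control diet with linoleic acid. A gene belonged to the comparison when its signal lay above the pooled median of all signals, 490.3, on both arrays. Of the 8251 annotated genes on the array, 4391 met this rule and are called measured. The signals of Bzw2 at 490.6 and Parp6 at 491 lay just inside this floor, and those of Pkp1 at 490.1 and Plekhh1 at 489.9 just outside it. Of these 2 arrays, a further 408 genes were above the floor on the t10,c12-CLA array only, 311 on the control array only and 3141 on neither.

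All mice were homozygous apoE knockouts on a C57BL/6JxOLA129 background, 3 months old when the diets began, and they ate their diet for 12 weeks. Of 29 mice, 10 were assigned to the control diet, 10 to a diet with the c9,t11 isomer of CLA and 9 to the t10,c12-CLA diet. The test fatty acid made up 1.0% of the diet by weight on every diet, and fat supplied 30% of the energy. A western diet is named in the sample labels, whereas the design text describes semi-purified diets, and the sources used here do not settle which is meant. Each diet was represented by 1 array of liver RNA, and it is not stated whether that RNA came from 1 mouse or from several. The 2 diets compared therefore have no replicates, so sizes are described without a test or an error of their own. Signals below are given in the order control, c9,t11-CLA, t10,c12-CLA, and differences are log2 of the t10,c12-CLA signal over the control signal. Both CLA diets were set against the same control array, so a deviation of that array would enter both differences.

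Conjugated linoleic acids are isomers of linoleic acid in which the double bonds are adjacent rather than separated by a methylene group. The t10,c12 isomer is known in mice for loss of body fat, enlargement and fat storage in the liver, and raised plasma insulin. The liver answers insulin through FOXO transcription factors, growth hormone through STAT5, and fatty acids through PPARA. It also makes most plasma proteins, which pass through the endoplasmic reticulum before secretion. Apolipoprotein E is the ligand through which remnant lipoproteins are taken up, and mice without it carry high plasma cholesterol.

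Compared with the control diet, the t10,c12-CLA liver had higher signals of Gadd45g, Apoa1, Igfbp1, G6pc, Cyp2e1 and several glutathione transferases. It had lower signals of Hsd3b5, Cyp7b1, Lifr, Ang and of many genes of growth hormone action, protein folding, complement and coagulation. Among the 4391 measured genes, 90 (2.05%) lay at or beyond 2-fold in the higher and 82 (1.87%) in the lower direction, which makes 3.92% at least 2-fold different. Beyond 4-fold lay 7 higher genes and 1 lower gene. The log2 differences had a median of -0.01 and an SD of 0.47, with quartiles at -0.27 and 0.28, and 49.1% of the genes had a difference above 0. Within 0.5 of 0 lay 3350 genes, or 76.3%. Of the genes above the floor on the t10,c12-CLA array only, 33 of 408 (8.09%) reached 2 times the floor there, and of those above it on the control array only, 19 of 311 (6.11%). These percentages are the background against which the counts in the gene lists are to be read. The lists and their members were chosen with earlier results of these data known. Each list count and median therefore describes its listed genes only.

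Technical values set the scale for these sizes. Among genes with several measured probe sets, 566 pairs targeting the same gene put the SD of one log2 difference at 0.40, a spread that holds measurement error but no variation between mice. The log2 signals of the arrays had a Pearson correlation of 0.924 taken over probe sets, which do not count as replicates. The 8 spiked-in hybridisation controls had t10,c12-CLA to control ratios between 0.902 and 1.26. The ratio of 3′ to 5′ signal, a sign of RNA integrity, was 1.06 for Gapdh on control and 0.78 on t10,c12-CLA, and 1.40 and 1.35 for Actb. When the array medians were set equal, the counts became 71 higher and 118 lower, so the balance between the directions depends on the scaling. Among the 2-fold genes described below, Ang, Elovl2, Gstm1, Gstm3, H3c14, Igfbp1 and Pcp2, and among the bounds Foxm1 and Prp2, rest on probe sets whose identifiers mark possible cross-hybridisation or incomplete probe selection. For Igfals, Igfbp1, Apom, Mgst3, Klf10 and Pcp2 a further probe set was on the array but not measured. Apoe itself gave signals of 6570, 8695 and 4288, a difference of -0.62. The place of its probe set relative to the disruption is not given, so its signals are no check of the genotype.

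**Figure D1:**
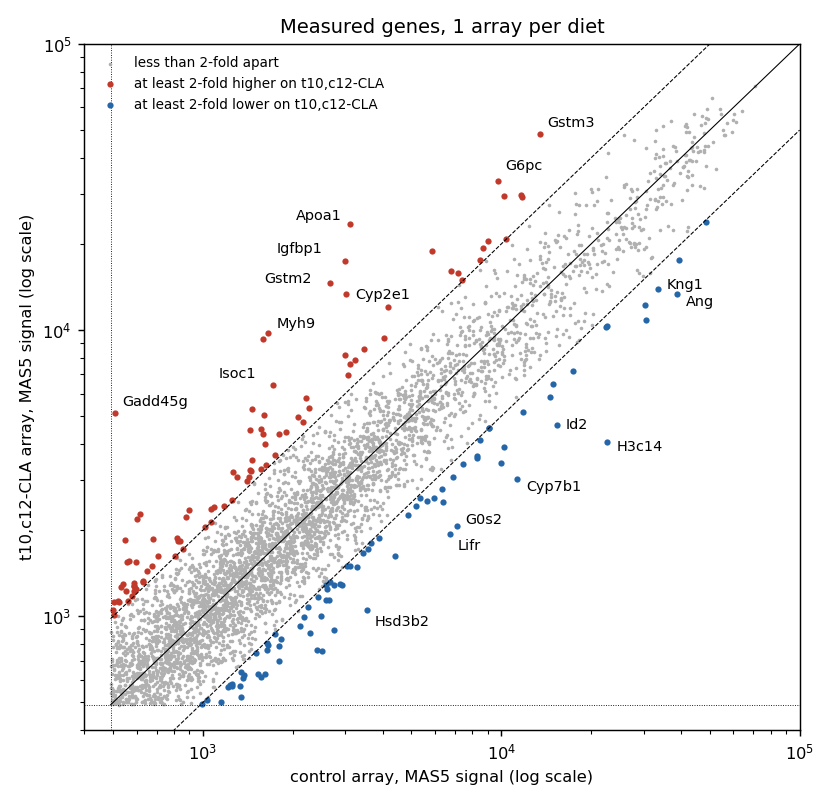
Each point is 1 of the 4391 measured genes, with the MAS5 signal on the control array on the horizontal axis and on the t10,c12-CLA array on the vertical axis, both on a log scale, 1 array per diet. The solid line marks equal signals, the dashed lines a 2-fold difference and the dotted lines the floor of 490.3, and the 90 higher and 82 lower genes lie outside the dashed lines at every brightness.

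The 2-fold genes were spread over the whole range of brightness. With the measured genes in 4 equal groups from dim to bright, the numbers past 2-fold were 21, 20, 24 and 25 for higher and 14, 21, 20 and 27 for lower genes. The SD of the log2 differences was 0.44, 0.46, 0.47 and 0.50 in the same order. The dimmest group was therefore not the widest.

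The largest higher signal among measured genes was that of Gadd45g, a stress-responsive inhibitor of growth, with signals of 508, 3618 and 5143 and a difference of 3.34. Its control signal lay just above the floor. Apoa1, the core protein of high density lipoprotein particles, gave 3110, 41606 and 23580, a 7.58-fold difference. The CLA arrays were both far above the control array for Apoa1. Cyp2e1, the cytochrome P450 that oxidises ethanol, showed the same order of arrays, with 3022, 39034 and 13411 and a difference of 2.15. Myh9, the heavy chain of non-muscle myosin, gave 1651, 5888 and 9742, a difference of 2.56, and its other probe set stood at 1.25.

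Among further genes with the largest higher signals, the t10,c12-CLA array stood alone for some and the CLA arrays stood together for others. Anxa5, a calcium-dependent phospholipid-binding protein, gave 1465, 1216 and 5306, a difference of 1.86. Ly6d, a surface protein used as a B cell marker, gave 1589, 277 and 9336, a difference of 2.55, while its other probe set was not measured. For Anxa5 and Ly6d the t10,c12-CLA array was high and the c9,t11-CLA array was below control. Hap1, the huntingtin-associated protein, gave 602, 1587 and 2190, with the CLA arrays both above control and a difference of 1.86. Isoc1, Pcp2 and Necap2 had differences of 1.91, 1.88 and 1.75. Above the floor on the t10,c12-CLA but not on the control array, the highest bounds were those of Ddit4 at 8.05-fold, Prp2 at 4.36-fold, Foxm1 at 3.33-fold, AU040320 at 3.27-fold and Tbc1d22a at 3.20-fold. A bound is the brighter signal over the floor and reads as at least that fold.

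The largest bound in the lower direction was that of Hsd3b5, a hydroxysteroid dehydrogenase of male mouse liver, with signals of 7239, 10059 and 171. Its t10,c12-CLA signal was below the floor, so it was at least 14.8-fold lower. H3c14, a replication-dependent histone gene, gave 22677, 12890 and 4074, a difference of -2.48. Its probe set identifier marks an incomplete selection of probes, and histone H3 genes are nearly identical in sequence. Id2, which binds and silences helix-loop-helix transcription factors, gave 15363, 6039 and 4649, a difference of -1.72. For H3c14 and Id2 the c9,t11-CLA array lay between the other arrays. Keg1, a glycine N-acyltransferase-like gene, gave 2505, 3039 and 753 and Nat8f1, of the N-acetyltransferase family, 10249, 7263 and 3915, with differences of -1.73 and -1.39. The ion channel gene Hcn3 stood at -1.38. Of genes above the floor on the control array only, Dmbt1, a mucin-like scavenger protein of epithelia, was at least 7.67-fold lower, with signals of 3762, 359 and 165. The mucin Muc1, the class I-like gene H2-M10.1 and the Golgi protein Golga3 were at least 3.11-fold, 3.14-fold and 2.67-fold lower.

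The genes listed for growth hormone action were more often lower than higher on the t10,c12-CLA array. Growth hormone binds its receptor on hepatocytes, activates STAT5 and drives the synthesis of IGF1 and of the proteins that carry it in plasma. Of 17 genes listed for this signalling, 12 were measured, 8 with a difference below 0 and 4 above, and the median was -0.50. Over all measured genes the median was -0.01 and 49.1% stood above 0. Ghr, the receptor, gave 11176, 7758 and 5827, a difference of -0.94, and its other probe set stood at -0.80. Igf1, the growth factor, gave 28589, 19508 and 16198, a difference of -0.82, with its other probe set at -0.68. Both probe sets of the receptor and of the growth factor thus pointed the same way.

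Igfals, the acid-labile subunit that holds IGF1 in the circulating complex, gave 8276, 5369 and 3574 and was 2.32-fold lower, the 1 list member past 2-fold. For Ghr, Igf1 and Igfals the control array was highest, the c9,t11-CLA array intermediate and the t10,c12-CLA array lowest. Socs2, a feedback inhibitor of the receptor, gave 1223, 1353 and 778, a difference of -0.65, and the liver transcription factors Foxa2 and Onecut1 stood at -0.89 and -0.62. On the other side, Cish, a STAT5 target and feedback inhibitor, gave 500, 1234 and 783 and stood at 0.65, with its control signal just above the floor. Igfbp3, which carries IGF1, stood at 0.29, Stat5a at 0.14 and Hnf4a at 0.42. Jak2 and Stat5b were below the floor on both arrays. Egfr stood at -0.27 on a marked probe set, while its unmarked probe sets stood at -0.21 and -1.22.

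One promoter is shown for this axis because STAT5 binds the sequence TTCNNNGAA, which reads alike on both strands. It covers the 250 bases before the second of 3 annotated starts of Igfals in RefSeq on GRCm38.p6 (chr17:24877981-24878230, plus strand), written 5′ to 3′ along the gene, with the match, which begins 58 bases before the start, in capitals.
Igfals: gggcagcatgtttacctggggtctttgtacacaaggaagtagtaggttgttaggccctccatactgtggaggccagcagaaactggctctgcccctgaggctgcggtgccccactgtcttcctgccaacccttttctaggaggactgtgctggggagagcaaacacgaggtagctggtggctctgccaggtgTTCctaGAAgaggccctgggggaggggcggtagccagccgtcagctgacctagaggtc
Matches to this sequence were found in 7.02% of all promoters of the same length, in 8.33% of promoters of genes at least 2-fold higher and in 13.8% of those of genes at least 2-fold lower. Promoters were matched by symbol for 3577 of the 4391 measured genes. Among promoters of measured genes the share was 5.79%. Of the other lower genes searched, Igf1, Hsd3b5 and both starts of Lifr held no match, nor did the third start of Igfals, while its first start did. A match is a run of letters and not a measured binding site.

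Growth hormone also sets the differences between male and female liver, so the genes known for such differences were counted separately. Of 11 measured genes with higher expression in males, 4 stood above 0 and 7 below, 2 were at least 2-fold lower, Cyp7b1 and Keg1, and the median was -0.22. Hsd3b5, which belongs to the same list, is not in that median because only its bound is known. Elovl3, a male-biased fatty acid elongase, gave 538, 254 and 348 and was above the floor on the control array only. Mup5 and Mup3, major urinary proteins that males excrete in quantity, stood above 0 at 0.87 and 0.23, whereas Cyp4a12b and Cyp2d9 stood at -0.02 and -0.31. The Mup genes are a family of near-identical copies, and the probe sets may not tell them apart.

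Only 4 genes with higher expression in females were measured, Igfbp1, Gstm2, Cyp2c39 and Cyp4a14. Their differences were all above 0, with a median of 1.996, where 49.1% of all measured genes stood above 0. The list was chosen with earlier results of these data known, so the count describes these 4 genes only. The median became 1.38 with the mean over probe sets, since the other probe set of Gstm2 showed no difference, and 1.53 without marked probe sets, of which that of Igfbp1 is one. Cyp2c39, a retinoic acid hydroxylase, gave 10206, 11686 and 29526, a difference of 1.53. Cyp17a1, which makes the precursors of sex steroids, gave 194, 1147 and 1059 and was at least 2.16-fold higher. The c9,t11-CLA signal of Cyp17a1 was as high as that on t10,c12-CLA, whereas for Cyp2c39 it stayed near control. The most female-specific genes of the list, Cyp2b9, Cyp2b13, Cyp3a16, Sult3a1, Hao2 and Cux2, were below the floor on both arrays.

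Steroid dehydrogenases and sulfotransferases, which convert and inactivate steroid hormones, had 13 measured genes, of which 9 stood below 0, with a median of -0.24. Hsd3b2 gave 3555, 3158 and 1050, a difference of -1.76, and Hsd17b2, which inactivates estradiol and testosterone, gave 4412, 5814 and 1626, a difference of -1.44. The CLA arrays parted for both genes, with the c9,t11-CLA signal far closer to control. Hsd17b12, a ketoacyl-CoA reductase of fatty acid elongation, gave 3234, 3251 and 7853 and was the 1 member 2-fold higher, at 1.28. Hsd17b10, Sult1b1 and Hsd11b1, the last of which regenerates active glucocorticoid, stood at -0.95, -0.87 and -0.75. The paralogs Hsd3b3 and Hsd3b6 were near 0 at -0.21 and 0.07, and Hsd3b1 was below the floor.

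Genes that insulin represses or induces did not share a direction. Of 15 measured genes of glucose output and insulin regulation, 8 stood above 0 and 7 below, and the median of 0.01 became -0.08 with equal array medians. Igfbp1, the insulin-repressed binding protein of IGF1, gave 2996, 9340 and 17504, a 5.84-fold difference, on a marked probe set. G6pc, glucose-6-phosphatase, which releases glucose from the liver, gave 9717, 22925 and 33304, a 3.43-fold difference. Irs2, an insulin receptor substrate that insulin represses, gave 229, 304 and 988 and was at least 2.02-fold higher. Igfbp1 and G6pc stood in the order control, c9,t11-CLA, t10,c12-CLA from low to high.

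Pck1, the rate-controlling enzyme of gluconeogenesis and likewise insulin-repressed, gave 14472, 24906 and 12365, a difference of -0.23. Fbp1 and Tat, other genes of this pathway and of fasting, stood at -0.28 and -0.33, and Pcx at 0.22. Igfbp2, a second IGF binding protein, gave 48432, 32420 and 23816 and was the 1 member at least 2-fold lower, at -1.02. Ptpn1, the phosphatase that removes phosphate from the insulin receptor, stood at 0.87 and Cebpb, a transcription factor of gluconeogenesis, at 0.68. The genes of glucose output thus ranged from G6pc, far above control, to Pck1 and Fbp1, somewhat below it.

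The promoters of Igfbp1 and G6pc hold the core CAAAACA of the insulin response element that FOXO factors bind, which is why they are shown, each as the 250 bases before the start in RefSeq on GRCm38.p6, 5′ to 3′ along the gene. The match in Igfbp1 (chr11:7197537-7197786, plus strand) begins 108 bases before the start. The match in G6pc (chr11:101367466-101367715, plus strand) begins 174 bases before the start and is on the opposite strand. Capitals mark the matches.
Igfbp1: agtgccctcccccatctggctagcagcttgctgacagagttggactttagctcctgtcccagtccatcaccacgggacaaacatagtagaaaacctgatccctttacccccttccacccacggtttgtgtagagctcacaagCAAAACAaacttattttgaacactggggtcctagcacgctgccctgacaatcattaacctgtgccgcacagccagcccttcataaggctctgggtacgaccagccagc
G6pc: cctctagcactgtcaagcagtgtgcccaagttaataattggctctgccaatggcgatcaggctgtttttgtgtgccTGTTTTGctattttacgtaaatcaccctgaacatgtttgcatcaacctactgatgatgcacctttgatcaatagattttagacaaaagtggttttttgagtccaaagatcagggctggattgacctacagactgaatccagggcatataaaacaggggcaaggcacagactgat
The core was present in 5.56% of all promoters, in 4 of 96 promoters (4.17%) of genes at least 2-fold higher and in 9 of 87 (10.3%) of genes at least 2-fold lower. Among promoters of measured genes, the set from which both were drawn, the share was 3.66%.

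**Figure D2:**
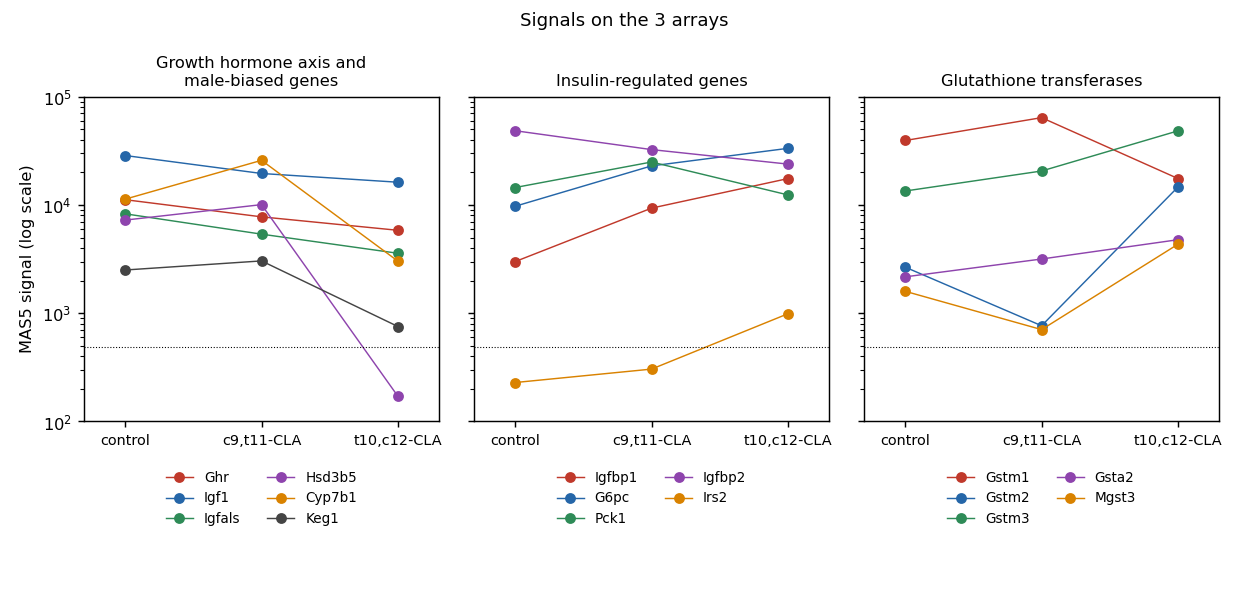
Each panel plots the MAS5 signals of a group of genes on a log scale (growth hormone axis and male-biased genes, insulin-regulated genes, glutathione transferases), with 1 point for the control array and 1 for each CLA array, lines that only guide the eye and a dotted line at the floor of 490.3. Ghr, Igf1 and Igfals are lowest on t10,c12-CLA and Igfbp1 and G6pc highest there, whereas Gstm2 and Mgst3 are high and Cyp7b1 low on t10,c12-CLA with the c9,t11-CLA array on the other side of control.

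Genes of fatty acid synthesis and NADPH supply stood above 0 in 8 of 9 measured cases, with a median of 0.47. None reached 2-fold on the probe set used, but Pklr, at 0.47 on a marked probe set, stood at 1.02 without marked probe sets. Fasn, fatty acid synthase, gave 1963, 2626 and 3594, a difference of 0.87. Me1, malic enzyme, which supplies NADPH, gave 2029, 951 and 3834, a difference of 0.92, and Pgd, of the pentose phosphate pathway, stood at 0.98. Srebf1, the transcription factor of this pathway, stood at 0.17, and Acly, which makes cytosolic acetyl-CoA, at 0.08. On the probe sets used, the enzymes of NADPH supply and Fasn lay farthest from 0 within this list, except Idh1 at -0.05.

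The desaturases and elongases that finish the new fatty acids differed among themselves. Elovl2, which extends long polyunsaturated fatty acids, gave 5935, 3350 and 2591 and was 2.29-fold lower, whereas Elovl1, which extends saturated ones, stood at 0.80 and Fads1, the delta-5 desaturase, at 0.41. Scd1, stearoyl-CoA desaturase, gave 36994, 56945 and 53780 on its brighter probe set, a difference of 0.54, but its other probe set stood at -0.94. No direction is given for Scd1, since the mean over its probe sets had the opposite sign, -0.20.

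Triglyceride synthesis and lipid droplet genes had a median of 0.17 over 17 measured genes, of which 2 lay past 2-fold above and 1 below. Lpin1, a phosphatidate phosphatase, gave 3117, 7994 and 7588, and Pnpla2, the adipose triglyceride lipase, 6807, 15840 and 16107. G0s2, the protein that inhibits PNPLA2, gave 7089, 1441 and 2065, a difference of -1.78. For these genes the CLA arrays lay on the same side of control, so that the lipase was higher and its inhibitor lower on both. Cidec, a lipid droplet protein of fat cells and fatty liver, gave 44, 39 and 905 and was above the floor on t10,c12-CLA only, at a bound of 1.85-fold that did not reach 2-fold. Mttp, which loads triglyceride onto apolipoprotein B, gave 860, 769 and 475 and lay above the floor on the control but not on the t10,c12-CLA array. Aadac, a microsomal esterase, stood at -0.93.

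Of the genes for uptake, binding and activation of fatty acids, 5 of 11 stood above 0, with a median of -0.05. Fabp5, an epidermal-type fatty acid binding protein, gave 1801, 946 and 786, a difference of -1.20, and Slc27a5, which activates bile acids and fatty acids, 29790, 17478 and 15510, a difference of -0.94. Both were lower on the CLA arrays than on the control array. Cd36, the fatty acid translocase, gave 75, 278 and 531, and Fabp4, a binding protein of fat cells and macrophages, 373, 529 and 798, both above the floor on the t10,c12-CLA but not on the control array. The abundant liver binding protein Fabp1 stood at 0.11.

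Fatty acid oxidation genes were split, with 14 of 29 above 0 and a median of -0.01 that became 0.03 under quantile normalization. Pex11a, which divides peroxisomes, gave 8687, 3659 and 19301, a difference of 1.15, and Pdk4, which blocks pyruvate oxidation, 806, 826 and 1623, a difference of 1.01. These were the 2 members past 2-fold. At the other end stood the dienoyl-CoA reductase Decr1, needed for unsaturated fatty acids, at -0.77 and the electron transfer flavoprotein Etfa at -0.76. Cpt1a, which admits fatty acids to mitochondria, stood at 0.28 and Cyp4a14, a strongly PPARA-responsive hydroxylase, at 0.25.

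Apolipoproteins were spread evenly, with 7 of 14 above 0, and the extremes were Apoa1 at the top and Apom, a carrier of sphingosine-1-phosphate in high density lipoprotein, at the bottom with 9092, 6960 and 4540, a difference of -1.002. Lcat, which esterifies cholesterol in high density lipoprotein, gave 30190, 19869 and 19171, a difference of -0.66, and Apoa2 stood at 0.41. The proteins of high density lipoprotein therefore pointed in different directions. Of the cholesterol synthesis genes only 8 of 17 on the array were measured, 4 on each side of 0, and their median of 0.23 became -0.01 and -0.24 with a lower and a higher floor. Fdps and Tm7sf2 stood at 0.81 and 0.79, but Tm7sf2 stood at 0.27 with the mean over probe sets. Hsd17b7 gave 1096, 676 and 450 and was at least 2.23-fold lower.

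Bile acid genes stood below 0 in 11 of 14 cases, with a median of -0.35. Cyp7b1, the oxysterol hydroxylase of the alternative pathway, gave 11297, 25809 and 3023, a difference of -1.90, and its other probe set was at -2.29. Cyp7a1, which limits the rate of the classical pathway, gave 2860, 2326 and 1739, a difference of -0.72, and Cyp8b1, which makes cholic acid, 23005, 17764 and 14288, a difference of -0.69. The enzymes of both pathways were thus lower. Nr0b2, the receptor that represses these enzymes, was also lower, with 3288, 2181 and 1492 and a difference of -1.14, as was Nr5a2, which activates them, at -0.57. The canalicular exporter Abcc2 gave 1404, 2057 and 2979 and was the 1 member at least 2-fold higher, while the uptake carrier Slc10a1 stood at -0.26.

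Glutathione transferases, which couple glutathione to reactive compounds, ranged from -1.17 to 2.46, with 4 of 16 measured genes past 2-fold in the higher direction, 1 in the lower and a median of 0.09. Gstm3 gave 13438, 20565 and 48293, a 3.59-fold difference, and its other probe set stood at 2.48. Gstm2 gave 2661, 766 and 14642, a difference of 2.46, but its other probe set showed no difference. Gstm1 gave 39344, 63968 and 17517, a difference of -1.17, with its other probe set at -0.01. Of these 3 mu-class genes, which are close copies of each other on chromosome 3, only Gstm3 had probe sets that were both past 2-fold, so the values of Gstm1 and Gstm2 are uncertain. The Gstm3 probe set used is itself marked, so its value is limited as well. Gsta2, of the alpha class, gave 2166, 3165 and 4770, a difference of 1.14. Mgst3, a microsomal transferase, gave 1593, 705 and 4335, a difference of 1.44. On the lower side stood Gstt2 at -0.78, Gsto1 at -0.64 and Gstk1 at -0.59.

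Other genes of the antioxidant response stood above 0 in 12 of 21 measured cases, with 1 past 2-fold in each direction and a median of 0.05 that became -0.04 with equal array medians. Gpx3, a secreted glutathione peroxidase, gave 1433, 1337 and 4491 and was 3.13-fold higher. Aox1, aldehyde oxidase, stood at 0.89, Gsr, glutathione reductase, at 0.62, and Txn1 and Gpx4 both at 0.61. The catalytic subunit of glutathione synthesis, Gclc, stood at -0.09, its partner Gclm at -0.43, Srxn1 at -0.56 and Hmox1 at 0.01. Nqo1 was below the floor on both arrays. Catalase, Cat, gave 18146, 17965 and 10790, a difference of -0.75. The carboxylesterase Ces1c gave 9966, 12896 and 3444, a difference of -1.53, and Ces1g stood at -0.70. The antioxidant response element TGACNNNGC was found in 10.2% of all promoters and in 11.4% of those of measured genes. The share was 12.5% for genes at least 2-fold higher and 14.9% for genes at least 2-fold lower. Of the transferase genes searched, Gstm3, Gsta2, Gstm2 and Gstm1 held no match.

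Drug-metabolising cytochromes P450 had 3 of 18 measured genes past 2-fold, each of them higher, with a median of 0.02 that became -0.07 with equal array medians. Beside Cyp2e1 and Cyp2c39, the third was Cyp2b10, a target of the receptor CAR, with 1428, 13715 and 3056 and a difference of 1.10. On the c9,t11-CLA array Cyp2b10 was much higher still. Cyp3a13 and Cyp3a25 stood at -0.87 and -0.61, Cyp1a2 at -0.53 and Cyp3a11 at 0.29.

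Most genes of protein folding stood below 0. The endoplasmic reticulum list, chaperones and stress genes of the compartment through which secreted proteins pass, had 19 measured genes, of which 16 stood below 0 and 3 were at least 2-fold lower, and its median was -0.41. Hspa5, the main chaperone of the compartment, gave 18499, 20971 and 10161, a difference of -0.86. Hsp90b1, the HSP90 of the compartment, gave 18207, 14581 and 9203, a difference of -0.98. Pdia3, a disulfide isomerase, gave 6876, 4217 and 3078, a difference of -1.16. The t10,c12-CLA signal was the lowest of the 3 arrays for each of them.

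Xbp1, the transcription factor that induces many of these genes, gave 5352, 2737 and 2593, a difference of -1.05, and Dnajb9, one of its targets, stood at -1.10 with its other probe set at -0.02. Pdia6, Manf and Ppib stood at -0.71, -0.69 and -0.63. Not sharing this direction were the membrane chaperone Canx at 0.17, the translocon subunit Sec61b at 0.46 and the degradation adaptor Sel1l at 0.30. The stress-response genes Atf6, Ddit3 and Trib3 lay above the floor on the t10,c12-CLA but not on the control array, with Trib3 at 191, 278 and 897 and Ddit3 at 254, 490 and 604. Their bounds did not reach 2-fold.

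The endoplasmic reticulum stress element, CCAAT and CCACG 9 bases apart, was present in 6 of the 18 promoters matched to measured genes of this list (33.3%), against 37 of all 32851 promoters (0.113%) and 10 of 4592 promoters of measured genes (0.218%). The list holds genes known to carry the element, so this share describes the list and not the diet. The promoters of Hspa5, Hsp90b1 and Pdia6 are shown because these genes had the lowest differences of the 6 that held the element. Each is the 250 bases before the start in RefSeq on GRCm38.p6, 5′ to 3′ along the gene, with the element's outer parts in capitals. They lie at chr2:34771840-34772089, plus strand, for Hspa5, at chr10:86705445-86705694, minus strand, for Hsp90b1 and at chr12:17266339-17266588, plus strand, for Pdia6. The element begins 65 bases before the start of Hspa5 and 98 before that of Pdia6, and Hsp90b1 holds it at 212 and, on the opposite strand, at 107.
Hspa5: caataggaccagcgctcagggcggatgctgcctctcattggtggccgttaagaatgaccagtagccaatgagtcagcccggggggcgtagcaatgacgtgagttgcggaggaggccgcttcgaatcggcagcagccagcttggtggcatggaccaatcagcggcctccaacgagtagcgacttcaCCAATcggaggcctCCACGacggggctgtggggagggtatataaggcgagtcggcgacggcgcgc
Hsp90b1: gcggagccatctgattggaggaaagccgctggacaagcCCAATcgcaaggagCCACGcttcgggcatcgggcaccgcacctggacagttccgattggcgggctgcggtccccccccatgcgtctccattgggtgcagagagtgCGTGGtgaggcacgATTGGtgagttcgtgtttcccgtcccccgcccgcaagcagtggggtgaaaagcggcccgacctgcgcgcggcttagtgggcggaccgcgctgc
Pdia6: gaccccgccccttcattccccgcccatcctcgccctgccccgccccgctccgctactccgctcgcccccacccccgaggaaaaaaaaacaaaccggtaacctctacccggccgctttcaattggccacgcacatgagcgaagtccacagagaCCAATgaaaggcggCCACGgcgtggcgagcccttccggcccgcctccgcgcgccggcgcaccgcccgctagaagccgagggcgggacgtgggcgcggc
Canx, Dnajc3 and Creld2 also held the element, with differences of 0.17, -0.02 and -0.31, so genes with the element ranged from Hsp90b1 to Canx. Pdia3, Dnajb9 and Xbp1, the list members at least 2-fold lower, held no match. None of the 87 promoters of genes at least 2-fold lower held the element, nor did any of the 96 of genes at least 2-fold higher. At a share of 0.218% among promoters of measured genes, sets of this size are too small to tell a difference.

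**Figure D3:**
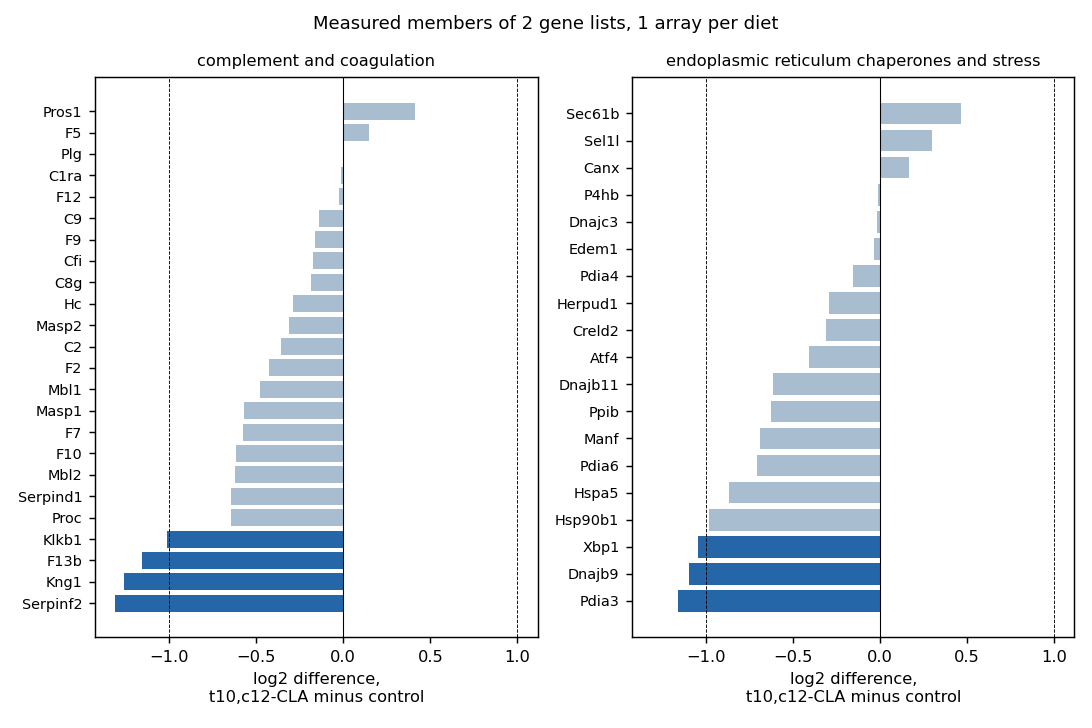
Bars give the log2 difference of t10,c12-CLA over control for each measured member of the complement and coagulation list and of the endoplasmic reticulum list, 1 array per diet, with dashed lines at 2-fold and dark bars for members past it. Of the first list 21 of 24 genes and of the second 16 of 19 lie left of 0.

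Cytosolic chaperones, ribosomal proteins and proteasome subunits leaned the same way, by smaller amounts. Heat shock proteins stood below 0 in 19 of 20 cases, with a median of -0.29 and only Dnajb1 above 0 at 0.10. Hspa8, the constitutive HSP70, gave 15651, 12692 and 8857, a difference of -0.82, and the inducible Hspa1b gave 1638, 351 and 760, a difference of -1.11. For Hspa1b the c9,t11-CLA signal was below the floor. Ribosomal protein genes stood below 0 in 22 of 24 cases, with a median of -0.24. Rps29, not in that median, gave 471.3, 869.5 and 999.6 and was at least 2-fold higher, with its control signal just below the floor. Rpl10a gave 17925, 10554 and 9124, a difference of -0.97, with its other probe set at -1.36, and Rpsa gave 14084, 9088 and 8457, a difference of -0.74. Ribosomal protein genes have many processed pseudogenes, whose transcripts the probes may also bind.

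Proteasome subunits, which degrade proteins, stood below 0 in 21 of 30 cases, with a median of -0.22. The core subunits Psma6 and Psma1 stood at -0.74 and -0.68, and the ATPases of the cap Psmc5, Psmc2 and Psmc6 at -0.68, -0.65 and -0.56. Of the non-ATPase subunits of the cap, Psmd14 gave 2555, 1263 and 1314 and stood at -0.96, but Psmd8 stood at 0.70 and Psmd1 at 0.69. The largest differences of the list thus lay on both sides of 0.

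Genes of oxidative phosphorylation stood below 0 in 34 of 49 cases, with a median of -0.17 and 2 at least 2-fold lower. Ndufb3, of complex I, gave 6322, 5680 and 2775, a difference of -1.19. Uqcc1, which assembles complex III, gave 4887, 532 and 2255, a difference of -1.12. Uqcrh of complex III and Atp5k of the ATP synthase stood at -0.82 and -0.80, whereas the membrane anchors of complex II, Sdhd and Sdhc, stood at 0.50 and 0.48. By contrast, genes of the citrate cycle and glycolysis stood above 0 in 15 of 24 cases, with a median of 0.18. Idh2, Mdh2 and Pdha1, mitochondrial enzymes of the cycle and its entry, gave t10,c12-CLA signals of 5659, 17677 and 8582 against control signals of 3523, 11026 and 5369, each a difference of 0.68. The oxidative phosphorylation list and the joint list of citrate cycle and glycolysis therefore had medians on opposite sides of 0.

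**Figure D4:**
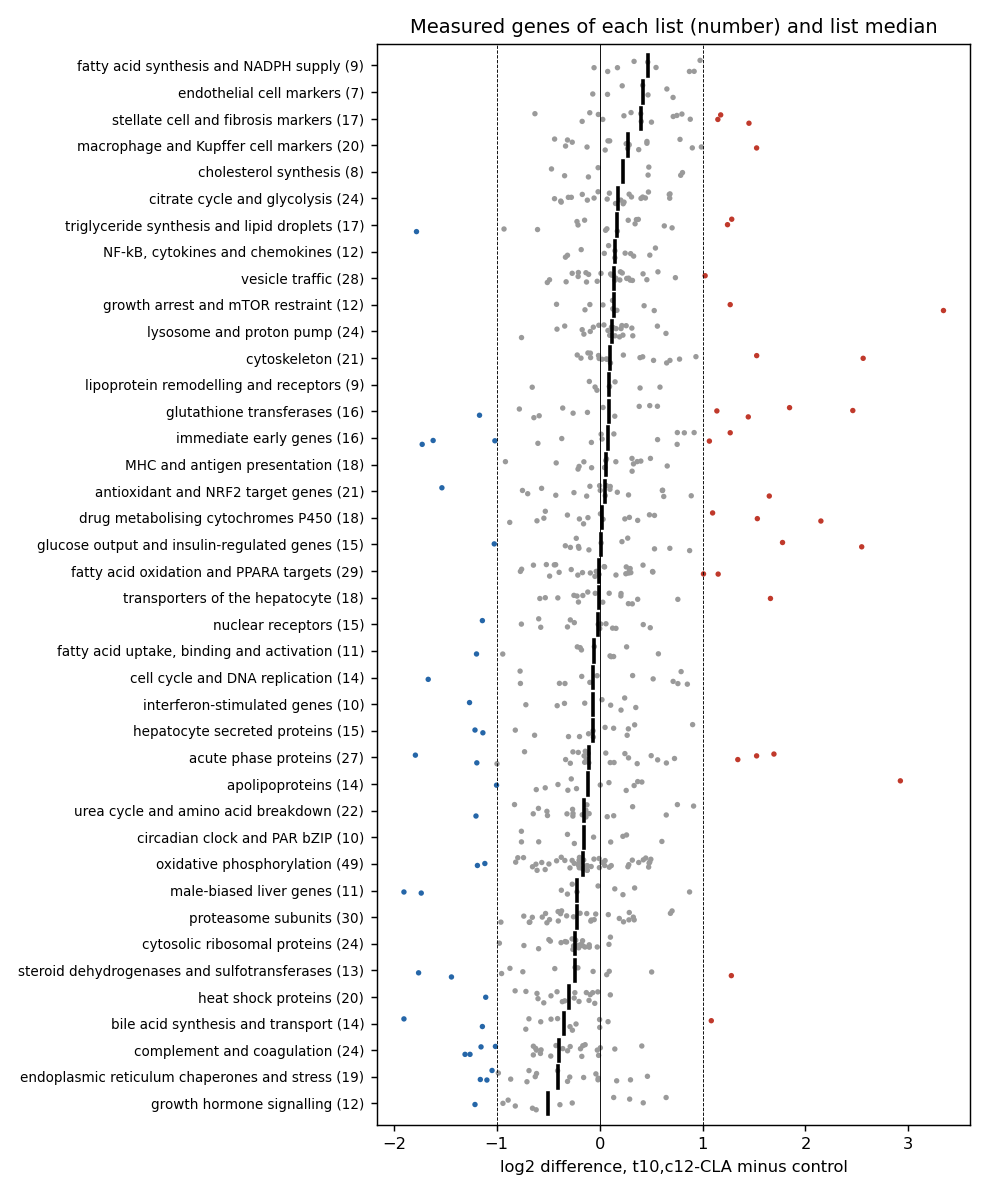
Each point is the log2 difference of t10,c12-CLA over control for 1 measured gene of a list, 1 array per diet, for the lists with at least 7 measured genes (their number in parentheses), with a black tick at the list median, dashed lines at 2-fold and coloured points for genes past it, spread vertically only to be seen. The medians run from fatty acid synthesis at 0.47 to growth hormone signalling at -0.50.

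Genes for amino acid breakdown and the urea cycle stood below 0 in 16 of 22 cases, with a median of -0.15. Agxt, which removes glyoxylate in peroxisomes, gave 8320, 8100 and 3617, a difference of -1.20, the 1 member past 2-fold. Oat, ornithine aminotransferase, gave 31732, 8934 and 17885, a difference of -0.83, with the lowest signal on c9,t11-CLA. Cps1, the entry enzyme of the urea cycle, stood at -0.10. Hpd, of tyrosine breakdown, and Asns, asparagine synthetase, stood at 0.91 and 0.76.

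Plasma proteins of the complement and coagulation systems were lower in 21 of 24 measured cases, with a median of -0.39 and 4 at least 2-fold lower. Kng1, kininogen, the precursor of bradykinin, gave 33469, 26229 and 13977, a difference of -1.26. Klkb1, plasma kallikrein, which cleaves kininogen, gave 3030, 2001 and 1501, a difference of -1.01. F13b, the carrier subunit of the factor that cross-links fibrin, gave 5633, 4723 and 2534, a difference of -1.15. In these genes the arrays stood in one order, control highest, c9,t11-CLA next and t10,c12-CLA lowest.

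Serpinf2, which inhibits plasmin, gave 30416, 24029 and 12285, a difference of -1.31, but its other probe set stood at -0.22. The vitamin K-dependent factors F2, F7 and F10 stood at -0.42, -0.58 and -0.61, and the anticoagulants Proc, protein C, and Serpind1 both at -0.64. In the lectin pathway of complement, Mbl2 and Masp1 stood at -0.62 and -0.57, and in the terminal pathway Hc, C8g and C9 at -0.29, -0.19 and -0.14. The 3 members above 0 were Pros1 at 0.41, F5 at 0.15 and Plg, plasminogen, at 0.01 with signals of 70778, 135007 and 71111.

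Other secreted proteins of the hepatocyte were not lower as a whole, with 6 of 15 above 0 and a median of -0.06. Albumin, Alb, gave 28437, 101163 and 31244, a difference of 0.14, and transthyretin, Ttr, stood at 0.27, so the tissue's defining genes were bright on both arrays. Serpina1b, an alpha-1 antitrypsin, gave 25750, 78128 and 48168, a difference of 0.90. Serpina6, which binds corticosteroids in plasma, gave 22603, 10151 and 10296, a difference of -1.13, with its other probe set at -0.23. Igf1 and Igfals, described above, belong to this list as well.

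Acute phase proteins, which the liver secretes during inflammation, parted in both directions, with 13 of 27 above 0, and their median of -0.11 became 0.01 under quantile normalization. Orm2, an alpha-1 acid glycoprotein, gave 5840, 15502 and 18891, a difference of 1.69. Lcn2, an iron-siderophore binding protein, gave 11679, 30522 and 29619, a difference of 1.34, with its other probe set at 0.42. Both stood high on the CLA arrays alike. On the lower side, Hamp, hepcidin, which blocks iron export, gave 14876, 18095 and 6504, a difference of -1.19, and Saa3, a serum amyloid A, 31622, 40192 and 15840, a difference of -0.997 that stayed just inside 2-fold. Hp, haptoglobin, gave 9575, 64189 and 7859, near control on t10,c12-CLA. Lifr, the receptor through which leukaemia inhibitory factor induces acute phase genes, gave 6731, 7590 and 1946, a difference of -1.79, and its other probe sets stood at -1.89 and -0.73.

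Ang, angiogenin, and Rnase4, both secreted ribonucleases, were lower together. Ang gave 38815, 31194 and 13415, a difference of -1.53, and Rnase4 gave 30452, 20041 and 10851, a difference of -1.49. In RefSeq these genes share their first start, at chr14:51090827-51091076, plus strand, so the 250 bases before it are identical for Ang and for the first of the 2 starts of Rnase4. They are shown because the shared start belongs to genes of nearly equal difference. The Ang probe set carries a mark for possible cross-hybridisation within its family.
Ang: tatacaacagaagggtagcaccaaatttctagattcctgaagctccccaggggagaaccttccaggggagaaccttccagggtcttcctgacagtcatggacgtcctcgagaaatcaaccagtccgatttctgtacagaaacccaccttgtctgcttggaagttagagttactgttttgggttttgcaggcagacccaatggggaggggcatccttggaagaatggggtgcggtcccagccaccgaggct
Across the genome, 224 genes that differed at least 2-fold or had such a bound could be placed, and 15 neighbouring pairs had annotated ends within 200 kb of each other. Of these pairs, 12 had the same direction and 3 opposite directions. The share among all neighbouring measured genes was not computed, so these counts have no background. Some pairs belong to the same gene family, and some share a gene with another pair. Gstm3 and Gstm2 were both higher and Hsd3b5 and Hsd3b2 both lower, whereas Gstm2 and Gstm1 differed in direction. In the gene pair of Lgals1 and Sh3bp1, Lgals1, a galectin, gave 2212, 1689 and 5804 and Sh3bp1 294, 334 and 985.

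Genes of growth restraint and the immediate early response followed separate courses. Beside Gadd45g, Ddit4, which restrains mTOR under stress, gave 381, 4100 and 3949, with the CLA arrays nearly equal. Btg2, an antiproliferative gene, gave 1793, 4053 and 4319, a difference of 1.27. Dusp1, a phosphatase of MAP kinases, gave 1746, 2690 and 3657, a difference of 1.07. In Gadd45g, Ddit4, Btg2 and Dusp1 both CLA arrays were above control. The growth arrest list as a whole had 9 of 12 measured genes above 0 and a median of 0.14, with Gadd45b at 0.53 and Cdkn1a, the p21 inhibitor, at 0.14. Jun, Junb and Jund stood at 0.82, 0.76 and 0.92. Phlda1 gave 2744, 2001 and 894, a difference of -1.62, and Klf10, induced by TGF-beta, 1507, 665 and 744, a difference of -1.02. The immediate early list held 2 higher and 3 lower genes past 2-fold among 16, and the sign of its median of 0.08 turned with equal array medians, to -0.01.

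Cell cycle genes were mostly near or below the floor, as only 14 of the 37 on the array were measured. Foxm1, a transcription factor of mitosis, gave 316, 858 and 1634, and Cdc20, an activator of the anaphase-promoting complex, 472, 978 and 1294, at least 2.64-fold higher. Ccnb2 and Mcm3 stood at 0.79 and 0.85. Against these, Mcm10, needed to start replication, gave 2410, 1765 and 760, a difference of -1.67, and Pcna, the sliding clamp of replication, 1620, 1063 and 948, a difference of -0.77. The proliferation marker Mki67 gave 475, 986 and 712, and Top2a was below the floor on both arrays. The list's median of -0.06 became 0.06 with equal array medians and 0.09 under quantile normalization, so no direction is given for it.

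Markers of cells other than hepatocytes were also compared, because a piece of liver holds several cell types. In such bulk tissue fewer cells of a type and less RNA per cell cannot be told apart. Stellate cell and fibrosis markers stood above 0 in 13 of 17 cases, with 3 at least 2-fold higher and a median of 0.40. Their summed signal over 24 genes on the array was 60274 on control, 50455 on c9,t11-CLA and 76361 on t10,c12-CLA. Timp3, a matrix-bound inhibitor of metalloproteinases, gave 681, 683 and 1861, a difference of 1.45. Bgn, the matrix proteoglycan biglycan, gave 9042, 11404 and 20434, a difference of 1.18, with its other probe set at 0.65. Col4a2, of basement membrane collagen, gave 1452, 1507 and 3220, a difference of 1.15, and its partner Col4a1 stood at 0.75. The fibrillar collagens divided, with Col1a1 at 0.80 (other probe set 1.99) and Col3a1 at 0.88 but Col1a2 at -0.10. Acta2, the smooth muscle actin that marks activated stellate cells, gave 512, 82 and 508, near the floor. Tgfb1, the main fibrogenic cytokine, gave 88, 130 and 710, and Reln, a marker of quiescent stellate cells, stood at -0.63.

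Macrophage and Kupffer cell markers stood above 0 in 15 of 20 cases, with a median of 0.27, and their summed signal over 26 genes went from 115020 on control to 146408 on t10,c12-CLA. Cd14, the co-receptor for bacterial lipopolysaccharide, gave 1562, 2718 and 4495, a difference of 1.53, the 1 member past 2-fold. Mpeg1, a pore-forming protein of macrophages, gave 7223, 7717 and 14332 and C1qc, of complement component C1, 12400, 11141 and 23148, both about as high on c9,t11-CLA as on control. The defining Kupffer cell markers were closer to 0, with Clec4f at 0.38, Adgre1 at 0.27 and Cd5l at 0.08, and Marco was below the floor. Lyz2, lysozyme, stood at -0.44. Cytokine and chemokine genes had a median of 0.15 over 12 measured genes with none past 2-fold, and Tnf, Il1b and Il6 were below the floor on both arrays.

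Endothelial markers stood above 0 in 6 of 7 cases, with a median of 0.42, and their summed signal over 13 genes was 16944 on control and 22842 on t10,c12-CLA. Stab1, a scavenger receptor of sinusoidal cells, stood at 0.71. Vwf, von Willebrand factor, gave 269, 253 and 1178 and was at least 2.40-fold higher, and Pecam1 and Lyve1 were above the floor on the t10,c12-CLA but not on the control array, with 182, 1020 and 894 and 39, 110 and 514. Biliary markers rested on Krt8 and Krt18, keratins that hepatocytes also make, at 0.94 and 0.23, whereas Krt7, Krt19 and Epcam were below the floor. Tff3, a trefoil peptide of the same list, gave 821, 5219 and 244 and was above the floor on the control but not on the t10,c12-CLA array.

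Markers of blood and neighbouring tissues gave few measured genes. The T and NK cell markers had summed signals of 7816 on control and 7331 on t10,c12-CLA, and all of Cd3e, Cd3g and Cd3d were below the floor. For B cells the sum went from 7253 to 14504, of which Ly6d made up 1589 and 9336, while Cd79a stood at -0.62 and Ms4a1 at -0.11. The neutrophil sum of 17137 on control and 35785 on t10,c12-CLA contained 11679 and 29619 from Lcn2, which hepatocytes also secrete, while S100a8 stood at -0.36 and S100a9, Ngp and Camp were below the floor. Erythroid markers had sums of 48940 and 55497, with the haemoglobin gene Hba-a1 at 0.04. Adipocyte markers had sums of 27360 and 16112, mostly from Car3, which gave 22420, 13566 and 10273, and the defining Adipoq and Retn were below the floor. Of the 3 measured adipocyte markers 2 stood below 0. Fabp4 and Cidec of the same list went the other way, above the floor on the t10,c12-CLA but not on the control array. Pancreatic markers summed to 13408 and 9321. Most of that gap came from Dmbt1, described above, and the 5 measured pancreatic markers had a median of -0.02. Muscle markers summed to 6107 and 6195. The part of these cell types in the differences of the other lists was not tested.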

How the data were processed

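Liver RNA was hybridised to Affymetrix mouse expression arrays, 1 per diet, from 8 µg of total RNA per the labels. The deposited values are MAS5 signals, hybridisation intensities on a linear scale, per the submitters' processing notes (MAS5 version not given in the sources used here). No further scaling was applied.

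There were 12488 probe sets, including 66 array controls. Symbols came from GEO's platform annotation, updated through RefSeq (GRCm38.p6). Of the others, 10833 had 1 symbol, of which 10817 matched RefSeq, 396 had several and 1193 none, and the last 2 kinds were left out. Each gene was represented by its brightest probe set (mean log2 signal), and other probe sets of a named gene are given where they differ. The floor was the pooled median of all signals, 490.3. With 1 array per diet no test was possible, and the number of arrays limits the precision.

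Genes named are the 15 largest differences in each direction (at least 2 times the floor on 1 array), the 5 highest bounds in each direction, and from each list the 2-fold members and bounds with up to 6 others. Further genes, among them Lgals1, the 6 genes described as opposite on the CLA diets and list members near 0, were chosen after their values were seen. Of 51 lists with 1233 genes, 963 genes were on the array and 719 measured. The members and lists were chosen with earlier results of these data known.

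Alternatives were equal array medians, quantile normalization, floors at the 25th and 75th percentile, a pseudocount of 50, the mean over probe sets, and leaving out marked probe sets, whose identifiers denote possible cross-hybridisation. RefSeq promoters were searched over 250 bases on both strands. Calculations used Python 3.11.15, numpy 2.4.6, pandas 2.3.3 and scipy 1.17.1, with plots in matplotlib 3.10.9, and were tested on simulated data.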

Additional observations from a re-analysis of the deposited data

Results flagged for a closer look

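In 6 genes the difference from control was at least 2-fold in opposite directions on the CLA diets. Measured against control were 4391 genes for t10,c12-CLA and 4324 for c9,t11-CLA. Genes at least 2-fold different in the same direction on both diets were not counted, so the 6 have no background. With 1 array per diet and a shared control array, these differences were not tested. Signals are in the order control, c9,t11-CLA, t10,c12-CLA. Gstm2 gave 2661, 766 and 14642, at 2.46 on t10,c12-CLA and -1.80 on c9,t11-CLA, though its other probe set showed no difference on t10,c12-CLA. Mgst3, a microsomal glutathione transferase, gave 1593, 705 and 4335, at 1.44 and -1.18. Arsa, the lysosomal arylsulfatase A, gave 1443, 707 and 3247, at 1.17 and -1.03. Pex11a, of peroxisome division, gave 8687, 3659 and 19301, at 1.15 and -1.25. Stx2, a syntaxin of membrane fusion, gave 1176, 543 and 2438, at 1.05 and -1.11, with its c9,t11-CLA signal near the floor of 490.3. Cyp7b1 was the 1 gene with the reverse order, at -1.90 on t10,c12-CLA and 1.19 on c9,t11-CLA, with signals of 11297, 25809 and 3023.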

How the results depend on the processing

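The counts of 2-fold genes depended most on the floor. They were 90 higher and 82 lower with the floor at the pooled median, 295 and 210 when it was lowered to the 25th percentile, and 40 and 38 when raised to the 75th. Equal array medians gave 71 higher and 118 lower and moved the median of all measured genes from -0.01 to -0.09. Quantile normalization gave 90 and 81, a pseudocount 80 and 72, the mean over probe sets 81 and 78, and leaving out marked probe sets 83 and 76. Of 339 named differences, 14 moved under the mean over probe sets, among them Gstm2 to 1.23, Gstm1 to -0.59, Dnajb9 to -0.56, Serpinf2 to -0.77, Serpina6 to -0.68, Lcn2 to 0.88, Copb2 to 0.28 and Tk1 to 0.29. Without marked probe sets 4 moved, Egfr to -1.22, Pklr to 1.02, Rxra to 1.03 and Saa2 to 0.08. No named gene at least 2-fold different changed its sign under the alternatives in which it was still measured. The floors and the pseudocount cannot reverse a sign, and equal array medians shift all differences by too little to reverse a 2-fold one. With the higher floor 230 of the 339 differences remained, and some also dropped out without marked probe sets, so those were not checked there. The medians of growth hormone signalling (-0.82 to -0.27), endoplasmic reticulum genes (-0.61 to -0.29), complement and coagulation (-0.48 to -0.36), bile acid genes (-0.44 to -0.29) and stellate cell markers (0.31 to 0.50) kept their side of 0 under all 7 alternatives. The adipocyte median of -0.82 over 3 genes became 0.28 with the lower floor. The cause of these shifts was not tested, except that a lower floor admits more genes and a higher one fewer. No paired analysis was possible because each diet has 1 array. Differences near the floor, such as that of Gadd45g, are limited by the dim signal.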

Other observations

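Several genes outside the comparisons above had large differences on the t10,c12-CLA array, and they were chosen after their values were seen. Anxa2, a membrane-binding annexin, gave 2994, 1617 and 8180 in the order control, c9,t11-CLA, t10,c12-CLA, a difference of 1.45. Ccn2, a matrix-associated growth factor, gave 558, 508 and 1542, a difference of 1.47. Tubb2a, a beta-tubulin, gave 4176, 2219 and 12027, a difference of 1.53, within a cytoskeleton list of 21 measured genes whose median of 0.11 reached 0 with equal array medians. Actb, the reference actin, stood at -0.01. Aqp8, a water channel of the hepatocyte, gave 1600, 1637 and 5056 and was the 1 member past 2-fold among 18 measured transporters, at 1.66. In Anxa2, Ccn2, Tubb2a and Aqp8 the t10,c12-CLA array was the highest of the 3.

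Clock genes, whose level depends on the hour of sampling, stood below 0 in 6 of 10 measured cases, with none past 2-fold. Dbp and Nr1d2 both stood at -0.76 and Nr1d1 at -0.59, while Per3 stood at 0.60. The hour at which the livers were taken was not used here. Interferon-stimulated genes had 5 of 10 measured members above 0 and 1 at least 2-fold lower, Iigp1, an immunity-related GTPase, with 17355, 12309 and 7224. Lysosomal genes stood above 0 in 16 of 24 cases and genes of vesicle traffic in 18 of 28, with medians of 0.12 and 0.14. Copb2, a coat protein of Golgi vesicles, gave 7373, 4439 and 15004, a difference of 1.02, but its other probe set stood at -0.46.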
